A study of Mus musculus with 6 samples.

Results

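The 9 genes described here encode subunits of the Polycomb repressive complexes PRC1 and PRC2, measured in the forming root region of the mouse molar with and without deletion of Arid1a in Gli1-expressing cells. They were chosen by name: Ezh1, Ezh2, Eed and Suz12 of PRC2, and Rnf2, Bmi1, Cbx2, Cbx7 and Cbx8 of PRC1. Each has 1 row among the 22287 genes of the deposited count table, and all 9 were among the 17305 genes with enough counts to test. RNA came from the apical part of the first lower molar of C57BL/6 pups at postnatal day 7.5, after tamoxifen at day 3.5 (1.5 mg per 10 g of body weight). Controls (3 libraries, replicates 2, 3 and 5) were Arid1a fl/fl, with loxP-flanked alleles and no recombinase named. Mutants (3 libraries, replicates 3, 4 and 5) were Gli1-CreER;Arid1a fl/fl, in which a tamoxifen-dependent recombinase is driven by Gli1. Deletion thus takes place in cells that express Gli1 while tamoxifen acts. Tamoxifen was given under a protocol stated for every sample, whereas CreER was present in the mutants alone, and its effects and those of Arid1a loss cannot be told apart. The labels do not say whether a library is 1 pup or a pool, so each p-value is set against library-to-library spread, which may in part be technical.

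Polycomb complexes keep developmental genes silent by modifying histones. PRC2 methylates histone H3 through Ezh2 or Ezh1, its alternative catalytic subunits, and needs Eed and Suz12 for activity. PRC1 ubiquitinates histone H2A through Rnf2 or its paralog Ring1, each paired with a PCGF protein such as Bmi1. In canonical PRC1 a CBX protein, among them Cbx2, Cbx7 and Cbx8, reads the PRC2 mark and compacts chromatin. BAF complexes, of which Arid1a is a DNA-binding subunit, are known to evict Polycomb complexes from chromatin and to oppose their action genetically. In dividing cells Ezh2 is the prevailing enzyme, while Ezh1 is typical of resting and differentiated cells.

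The libraries held 20453247 to 24255352 estimated counts each. Arid1a, the targeted gene, stood at 210, 202 and 204 CPM (counts scaled to library size) in control replicates 2, 3 and 5 and at 120, 134 and 130 CPM in mutant replicates 3, 4 and 5. Every mutant library was below every control library, in keeping with the labels (log2 fold change -0.68, SE 0.07, edgeR quasi-likelihood adjusted p = 0.0129). Arid1a was no longer called when control replicate 2 or control replicate 3 was left out (adjusted p = 0.0506 and 0.0529). All 8 markers of dental mesenchyme and odontoblasts, the labelled tissue, were measured, with a summed level of 47867 to 49248 CPM in controls and 41635 to 51090 CPM in mutants. While these sums overlapped, the mean log2(CPM + 1) of the 8 markers was 8.17 to 8.24 in controls and 8.34 to 8.37 in mutants (exact permutation p = 0.1, the smallest possible). Of the 8, 4 were higher in each mutant than in each control, beside 10.6% of all tested genes. Lists of markers of other cells were also separated between the groups. The 8 epithelial markers, none of them at 0, summed to 178736 to 277842 CPM in controls and 68104 to 113355 CPM in mutants. Of these markers, 1 of 8 was called lower (Amelx), beside 1.2% of all tested genes. The enamel genes Amelx, Ambn and Enam took 17.3% to 24.02% of all control counts and 7.43% to 11.6% of mutant counts. The 6 erythroid markers tested of 8 listed summed to 1422 to 1947 CPM in controls and 2366 to 5509 CPM in mutants. On the mean log2(CPM + 1) scale, macrophage markers lay at 4.59 to 4.94 in controls and 5.07 to 5.42 in mutants. Of these, 1 of 7 was called higher (Cd68), beside 0.659% of all tested genes. Endothelial markers lay at 5.19 to 5.45 and 5.49 to 5.53, and Schwann cell markers at 1.75 to 1.92 and 2.20 to 2.41. Skeletal muscle markers overlapped, at 1.27 to 2.46 and 1.08 to 1.79. In bulk RNA, fewer cells of a type and less RNA per cell cannot be told apart, and the part of these shifts in the values below was not tested.

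None of the 9 subunit genes changed at an adjusted p under 0.05 (edgeR quasi-likelihood test, adjusted over all genes tested), against a background of 1.86% of all tested genes (0.659% higher and 1.2% lower in mutants). None reached an unadjusted p under 0.05 either, which 15% of all tested genes did, and DESeq2, limma-voom and limma on the normalized table also called 0 of 9 and found 0 at an unadjusted p under 0.05. Of the 9 log2 fold changes, mutant minus control, 4 were positive and 5 negative, from -0.23 for Cbx7 to 0.27 for Ezh2, with a median of -0.06 beside 0.01 for all genes. Their median size, ignoring sign, was 0.12, beside 0.15 for all genes. The 95% confidence intervals of all 9 genes lay within a 2-fold change in either direction. For 6 of them the interval also lay within a 1.5-fold change, and it reached beyond 1.5-fold for Ezh2, Rnf2 and Cbx7. Libraries of the groups were fully separated for 1 of the 9 genes, Eed, beside 21.3% of all genes. The interval bounds are for the mixed tissue, in which deletion takes place in Gli1-expressing cells and Arid1a RNA stood at 0.62 of control. Levels in the deleted cells alone were not measured. The bounds hold with library scaling by TMM, a method that sets the bulk of genes level between libraries. Scaling by library size without TMM shifted the centre of all log2 fold changes to 0.21. The values for Ezh1, Suz12, Cbx2 and Cbx8 then turned positive. With that scaling 3 of the 9 genes reached an unadjusted p under 0.05, beside 5026 of all 17305, while 0 were called, beside 520 of all genes.

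**Figure D1:**
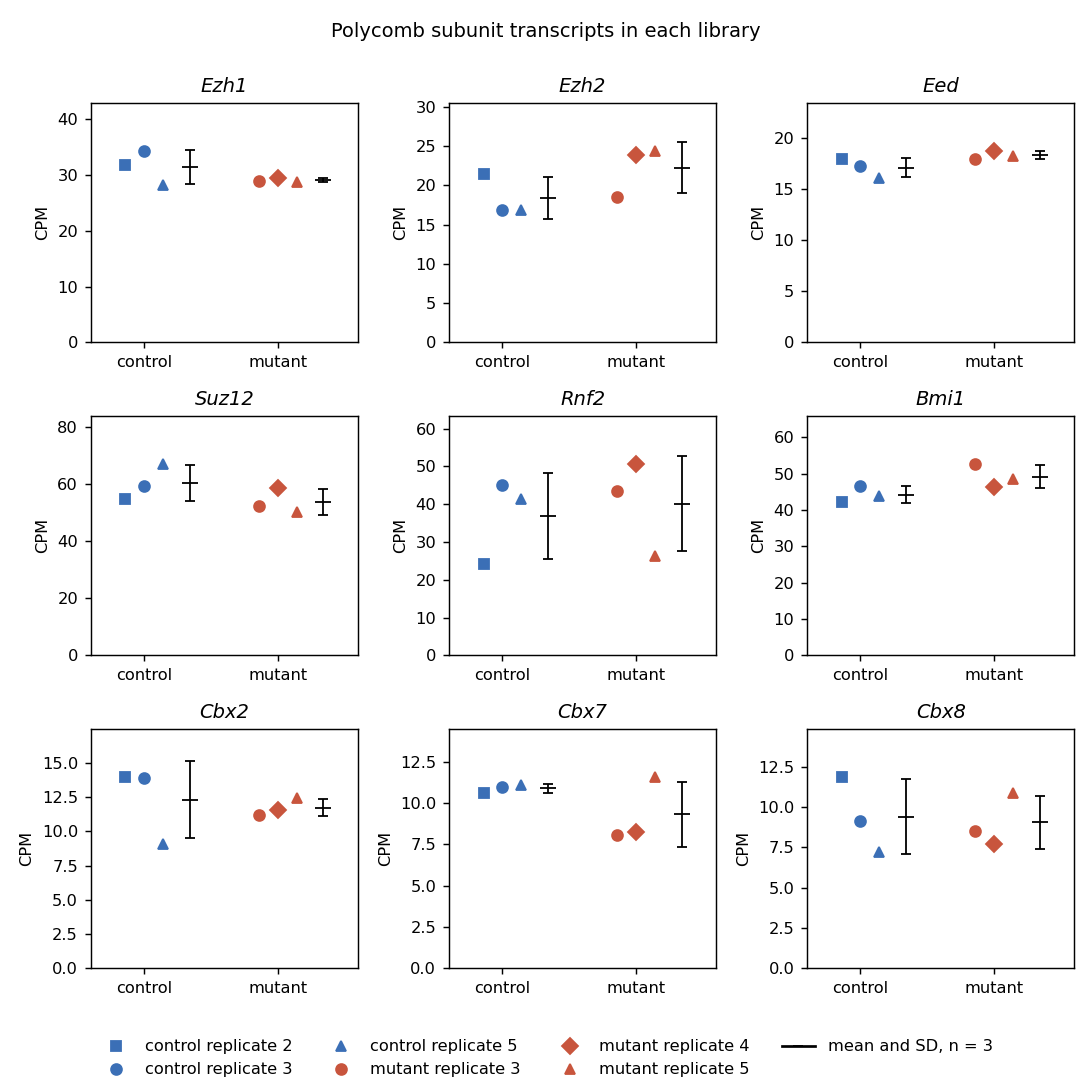
Level of each Polycomb subunit gene in CPM (vertical axis from 0) in the 3 control and 3 mutant libraries, 1 symbol per library, with the mean and SD of each group beside them. The groups overlap for 8 of the 9 genes, Eed is separated by a narrow margin, and Rnf2 has 1 low library in each group.

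The catalytic subunits of PRC2 were both measured well. Ezh2, which lies on the minus strand of chromosome 6 in mm10 from 47530139 to 47595341, stood at 21.5, 16.9 and 16.8 CPM in control replicates 2, 3 and 5 and at 18.5, 23.9 and 24.4 CPM in mutant replicates 3, 4 and 5. Mutant replicates 4 and 5 were above every control, while mutant replicate 3 lay inside the control range. The difference was not called (18.4 ± 2.68 CPM in controls and 22.3 ± 3.29 in mutants, SD, n = 3; log2 fold change 0.27, 95% interval -0.07 to 0.61, edgeR adjusted p = 0.439). Ezh1, on the minus strand of chromosome 11 from 101191115 to 101226463, stood at 31.9, 34.4 and 28.2 CPM in the controls and at 29.0, 29.5 and 28.8 CPM in the mutants. The mutant libraries were close to each other, at the lower end of the control range, and the interval of -0.32 to 0.09 around a log2 fold change of -0.11 left it uncalled (edgeR adjusted p = 0.621).

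The balance between the paralogs can be read within a library, where no scaling enters. The log2 ratio of Ezh2 to Ezh1 counts was -0.57, -1.02 and -0.74 in control replicates 2, 3 and 5 and -0.65, -0.31 and -0.24 in mutant replicates 3, 4 and 5. Mutant replicates 4 and 5 had the highest ratios, and mutant replicate 3 lay below control replicate 2. The mean ratio differed by 0.38 (exact two-sided permutation p = 0.2, adjusted p = 0.467 over 7 ratios), where 3 against 3 libraries can give no p below 0.1. Ezh2 relative to Suz12 differed by 0.44 (exact permutation p = 0.2) and relative to Eed by 0.17 (exact permutation p = 0.3), and the groups overlapped in both. For all 3 ratios of Ezh2, the difference did not pass the test at this number of libraries.

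Ezh2 is commonly described as a target of E2F factors, which drive genes of the cell division cycle, and its level was set beside such genes. A list of 18 proliferation genes, among them Mki67 and Top2a, had a mean log2(CPM + 1) of 4.11, 3.81 and 3.87 in control replicates 2, 3 and 5 and of 4.21, 4.56 and 4.47 in mutant replicates 3, 4 and 5. All mutants were above all controls (exact permutation p = 0.1, the smallest possible), and control replicates 3 and 5, which had the least Ezh2, also had the lowest values here. Mutant replicate 3 had less Ezh2 than control replicate 2 but a higher value on this list. Of the 18 genes, 18 had a positive log2 fold change and 1 was called, Ccnb1, which encodes a mitotic cyclin (log2 fold change 0.90, edgeR adjusted p = 0.0227). Of all 17305 tested genes, 8994 had a positive log2 fold change and 0.659% were called higher. The median log2 fold change of the 18 genes was 0.53. That of Ezh2 was 0.27, and whether Ezh2 moved with the share of dividing cells was not tested. The 5 genes whose profile over the 6 libraries was closest to that of Ezh2 were Zfhx2, Zeb2, Lpar4, Ncaph and Adamts4, with a root mean square difference of 0.03 to 0.05 between mean-centred log2(CPM + 1) values. Ncaph encodes a condensin subunit and Zeb2 a zinc finger repressor.

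**Figure D2:**
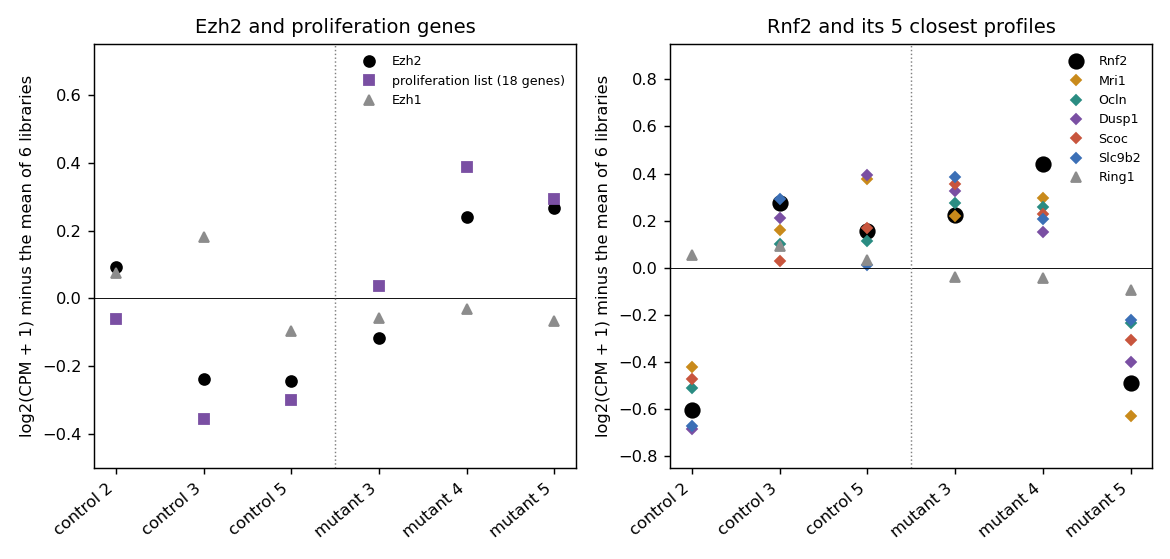
Left, log2(CPM + 1) of Ezh2 and Ezh1 and the mean of 18 proliferation genes in each library, each minus its mean over the 6 libraries. Right, the same for Rnf2, the 5 genes with the closest profile and the paralog Ring1, showing that Rnf2 and these genes are lowest in control replicate 2 and mutant replicate 5 while Ring1 varies little.

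Promoter sequences of 8 of the 9 genes were found in RefSeq's annotation of GRCm38.p6, the build also called mm10, as windows of 300 bases from 250 before to 50 after the annotated start. Each was searched on both strands for 4 forms of the E2F site, TTTGGCGC, TTTCCCGC, TTTGCCGC and TTTCGCGC. Any of these occurred in 2.26% of the 32851 promoter windows of that length, and in 2 of the 8, those of Ezh2 and Suz12. They are shown with Ezh1, the paralog of Ezh2 that had no match, as the first 270 bases of each window, 5′ to 3′ on the strand of the gene, with the matching letters in capitals. The windows are chr6:47595011-47595280 on the minus strand for Ezh2, chr11:79992856-79993125 on the plus strand for Suz12 and chr11:101226444-101226713 on the minus strand for Ezh1.
Ezh2: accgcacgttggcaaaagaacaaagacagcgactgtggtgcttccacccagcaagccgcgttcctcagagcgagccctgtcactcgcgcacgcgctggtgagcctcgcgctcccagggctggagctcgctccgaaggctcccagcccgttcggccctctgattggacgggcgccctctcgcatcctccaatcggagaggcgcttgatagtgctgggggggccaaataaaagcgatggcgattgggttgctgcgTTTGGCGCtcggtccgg
Suz12: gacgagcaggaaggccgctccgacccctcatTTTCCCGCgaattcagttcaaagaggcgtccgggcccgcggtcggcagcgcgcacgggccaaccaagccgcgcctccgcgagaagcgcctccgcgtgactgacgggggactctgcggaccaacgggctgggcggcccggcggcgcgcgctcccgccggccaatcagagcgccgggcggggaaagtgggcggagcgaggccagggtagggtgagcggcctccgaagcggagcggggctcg
Ezh1: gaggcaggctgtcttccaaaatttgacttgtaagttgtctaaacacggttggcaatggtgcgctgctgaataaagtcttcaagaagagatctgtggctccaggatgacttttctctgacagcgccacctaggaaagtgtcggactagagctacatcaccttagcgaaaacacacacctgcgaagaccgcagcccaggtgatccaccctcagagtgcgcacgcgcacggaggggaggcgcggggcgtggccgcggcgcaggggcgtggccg
The Ezh2 match starts at base 254 of its window, just after the start annotated by RefSeq, and the Suz12 match at base 32. GENCODE M21 places the 5′ end of Ezh2 further upstream, at 47595341, so the Ezh2 window lies inside the gene as drawn there. A match describes the letters and shows neither binding nor use of the site, and the windows without one say nothing of other E2F sites.

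The core partners of the enzymes differed little between groups. Suz12, the scaffold subunit (plus strand of chromosome 11, 79993106 to 80034123), stood at 54.9, 59.3 and 67.2 CPM in control replicates 2, 3 and 5 and at 52.2, 58.8 and 50.2 CPM in mutant replicates 3, 4 and 5. Control replicate 5 was the highest library and the groups overlapped (log2 fold change -0.17, 95% interval -0.40 to 0.06, edgeR adjusted p = 0.490). Eed, which binds the methylated histone and stimulates the enzyme (minus strand of chromosome 7, 89954654 to 89980983), stood at 17.9, 17.3 and 16.1 CPM in the controls and at 17.97, 18.7 and 18.2 CPM in the mutants. Each mutant was above each control, the closest pair being mutant replicate 3 and control replicate 2. The difference was nevertheless small (log2 fold change 0.10, 95% interval -0.11 to 0.30, edgeR adjusted p = 0.676).

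Rnf2, the catalytic RING subunit of PRC1, was the most variable of the 9 genes, and the variation did not follow genotype. It lies on the minus strand of chromosome 1 from 151458004 to 151500955. Its level was 24.1, 45.2 and 41.5 CPM in control replicates 2, 3 and 5 and 43.5, 50.7 and 26.2 CPM in mutant replicates 3, 4 and 5. Control replicate 2 and mutant replicate 5 were low and the other 4 libraries lay together, with the highest 2.11 times the lowest. The SD of log2(CPM + 1) within groups was 0.48, larger than in 98.6% of the 5341 genes with a mean of 20 to 80 CPM. The counts behind these values were 495 and 597 in the low libraries and 762 to 1169 in the others, so counting error is small beside the gap. The group difference was not called (log2 fold change 0.12, 95% interval -0.54 to 0.78, edgeR adjusted p = 0.891), and without control replicate 2 or mutant replicate 4 its sign turned, to -0.11 and -0.08.

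Genes that shared the Rnf2 pattern were looked for after its values were seen. Among 12108 genes averaging 5 CPM or more, the closest were Mri1, Ocln, Dusp1, Scoc and Slc9b2, at a root mean square difference of 0.15 to 0.17. Ocln, which encodes the tight junction protein occludin of epithelia, stood at 7.30 and 9.04 CPM in control replicate 2 and mutant replicate 5 and at 11.7 to 13.3 CPM in the other libraries. Dusp1, an immediate early phosphatase gene, stood at 11.7 and 14.5 CPM in the same libraries and at 21.7 to 25.9 CPM in the others. The epithelial list had a mean log2(CPM + 1) of 10.32, 10.67 and 10.64 in control replicates 2, 3 and 5 and of 10.27, 10.25 and 9.67 in mutant replicates 3, 4 and 5. It was lowest within each group in the library with low Rnf2, but mutant replicates 3 and 4, with high Rnf2, lay below control replicate 2. Whether cell makeup has a part in the Rnf2 values was not tested. The ends of Rnf2 and Trmt1l, which lie on opposite strands, overlap. No source used here states the strand setting of the counting, so reads of the overlap may not be separated. Trmt1l stood at 20.2 and 20.0 CPM in control replicate 2 and mutant replicate 5, and at 10.8 to 17.3 CPM in the other libraries.

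Ring1, the other RING subunit gene, did not share this pattern. It stood at 21.4, 22.1 and 21.1 CPM in the controls and at 20.1, 20.0 and 19.3 CPM in the mutants. Each mutant was below each control by a small margin, and Ring1 was not called (log2 fold change -0.12, edgeR adjusted p = 0.525). The log2 ratio of Rnf2 to Ring1 counts ran from 0.17 to 1.03 in controls and from 0.44 to 1.34 in mutants, with a mean difference of 0.24 (exact permutation p = 0.5). Without control replicate 2 this difference was -0.04.

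Bmi1, the PCGF subunit known for keeping progenitor cells from senescence, had the smallest p of the 9 genes. It lies on the plus strand of chromosome 2 from 18677018 to 18686629. It stood at 42.1, 46.6 and 43.8 CPM in control replicates 2, 3 and 5 and at 52.7, 46.3 and 48.5 CPM in mutant replicates 3, 4 and 5. Control replicate 3 was just above mutant replicate 4, so the groups overlapped. The difference was not called (44.2 ± 2.30 CPM in controls and 49.1 ± 3.25 in mutants, SD, n = 3; log2 fold change 0.15, 95% interval -0.03 to 0.34, unadjusted p = 0.0920, edgeR adjusted p = 0.426). The 5 closest profiles were those of Rtcb, Fundc2, Map3k20, Ints12 and Tpgs1, at a root mean square difference of 0.02 to 0.03. The log2 ratio of Bmi1 to its paralog Pcgf2 was 0.11, 0.21 and -0.03 in the controls and 0.46, 0.17 and 0.29 in the mutants. The groups overlapped there too (difference 0.21, exact permutation p = 0.2).

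The CBX genes had the fewest counts of the 9, from 133 to 296 per library. Cbx7, typical of stem and resting cells, lies on the minus strand of chromosome 15 from 79915807 to 79971119. It stood at 10.6, 10.95 and 11.1 CPM in control replicates 2, 3 and 5 and at 8.08, 8.28 and 11.6 CPM in mutant replicates 3, 4 and 5. Mutant replicates 3 and 4 were below every control and mutant replicate 5 above every control (log2 fold change -0.23, 95% interval -0.59 to 0.14, edgeR adjusted p = 0.569). Without mutant replicate 5 the log2 fold change of Cbx7 was -0.41 and still uncalled.

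Cbx2 and Cbx8 are neighbours on chromosome 11, Cbx2 on the plus strand from 119022962 to 119031270 and Cbx8 on the minus strand from 119036305 to 119040969. Cbx2 stood at 14.0, 13.9 and 9.09 CPM in the controls and at 11.2, 11.5 and 12.4 CPM in the mutants. Cbx8 stood at 11.9, 9.13 and 7.24 CPM in the controls and at 8.54, 7.72 and 10.9 CPM in the mutants. For both, control replicate 5 was the lowest library and control replicate 2 the highest, and the mutants lay between them. Neither was called (log2 fold changes -0.07 and -0.06, edgeR adjusted p = 0.892 and 0.928), and neither sign was stable, each turning positive without control replicate 2 (0.03 and 0.15). Cbx2 also turned positive without control replicate 3 (0.03), as did Cbx8 without mutant replicate 4 (0.04). The log2 ratios of Cbx2 and Cbx8 to Cbx7 differed by 0.20 each between groups, with overlapping groups (exact permutation p = 0.5 for both). The Cbx2 ratio difference was -0.02 without control replicate 5.

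Levels of different genes can be compared per length of exon. On the scale of CPM per kb of annotated exon, Bmi1 and Suz12 were the highest of the 9 genes, with means over all 6 libraries of 11.7 and 11.5. Rnf2 followed at 9.34, and the ranges of these 3 genes over the libraries overlapped. Eed (4.62) and Ezh1 (4.07) came next and overlapped each other, and every library had more Rnf2 per kb than any library had Eed. Ezh2 (3.05), Cbx2 (2.82) and Cbx8 (2.51) formed a lower group with overlapping ranges, and Ezh2 in its highest library (3.655) was below Ezh1 in its lowest (3.789). Cbx7 was lowest at 1.56, with no overlap with Cbx8. These values rest on the exons of GENCODE M21, so unused exons lower a gene's level.

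**Figure D3:**
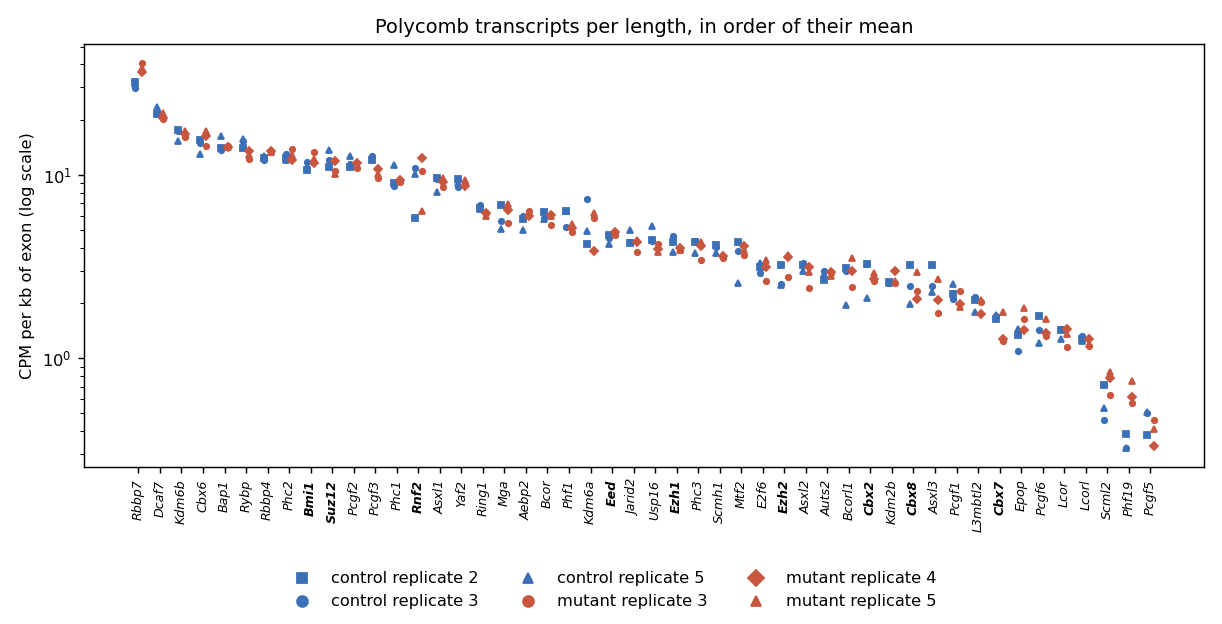
CPM per kb of annotated exon (log axis) of Polycomb genes in each of the 6 libraries, ordered by their mean, with the 9 subunit genes in bold on the horizontal axis. Bmi1 and Suz12 are the highest of the 9 and Cbx7 the lowest.

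Shares of each paralog family were taken on the same scale and carry the same limit, that unused exons lower a gene's level. Ezh1 held 60.6% ± 3.79 of the EZH pair in controls and 54.2% ± 3.78 in mutants, with overlapping groups. Among the 6 PCGF genes, Bmi1 had 27.9%, 29.45% and 27.3% in control replicates 2, 3 and 5 and 35.0%, 30.8% and 32.6% in mutant replicates 3, 4 and 5. Pcgf3, which belongs to a variant PRC1, had 31.6%, 31.9% and 30.8% in the controls and 25.4%, 28.65% and 26.9% in the mutants. These 2 shares were the only ones of 15 computed whose groups did not overlap. Each had an exact permutation p of 0.1, the smallest possible, and an adjusted p of 0.682 over the 15 shares, and the shares were computed after the levels had been seen.

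The other Polycomb genes were read from the same fit, in lists that had been written with earlier results of these data known. Of 40 tested (42 listed), 0 were called, beside 1.86% of all tested genes. An unadjusted p under 0.05 was reached by 5 of the 40, beside 15% of all tested genes. Of the 40, 14 had positive log2 fold changes, and the median was -0.04. DESeq2 called 2 of 41, Rbbp7 and Pcgf3, beside 851 of all 22287 genes in that fit. By list, 0 of 10 other PRC2 genes, 0 of 9 canonical PRC1 genes, 0 of 14 variant PRC1 genes and 0 of 7 antagonists passed. The groups did not overlap for 8 of the 40 (3 higher and 5 lower in mutants), beside 21.3% of all genes.

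Among the PRC2 genes, Rbbp7, a histone-binding subunit, and Phf19, which brings PRC2 to chromatin, came closest to the threshold. Rbbp7 stood at 93.2, 86.9 and 90.8 CPM in controls and at 118, 106 and 111 CPM in mutants (log2 fold change 0.31, SE 0.07, edgeR adjusted p = 0.0866). Phf19 stood at 1.95, 1.64 and 1.63 CPM in controls and at 2.86, 3.08 and 3.78 CPM in mutants (log2 fold change 0.89, SE 0.21, edgeR adjusted p = 0.0861). The libraries of the groups were separated in both genes. The next by p were Phf1 (log2 fold change -0.22, edgeR adjusted p = 0.402) and Epop (0.35, 0.453), accessory subunits of different PRC2 forms. Phf19 was the one gene of the 40 whose 95% interval, 0.41 to 1.37, reached beyond a 2-fold change.

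In the PRC1 lists the smallest p was that of Pcgf3, at 115, 121 and 119 CPM in controls and 91.9, 103 and 96.2 CPM in mutants (log2 fold change -0.28, SE 0.07, edgeR adjusted p = 0.107). Rybp, which takes the place of CBX proteins in variant PRC1, followed at 66.5, 72.1 and 74.5 CPM in controls and 57.8, 64.3 and 60.9 CPM in mutants (log2 fold change -0.22, edgeR adjusted p = 0.226). Both genes were lower in each mutant than in each control. Of the canonical genes, Scmh1 (log2 fold change -0.15) and Scml2 (0.39) had the smallest p, at edgeR adjusted p = 0.411 and 0.452. Among antagonists, Usp16, a deubiquitinase of histone H2A, had the smallest p (log2 fold change -0.24, edgeR adjusted p = 0.301).

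Kdm6a, an X-linked demethylase of the PRC2 mark, varied between libraries without a group difference (log2 fold change -0.06, edgeR adjusted p = 0.936). It stood at 35.4, 61.7 and 41.4 CPM in control replicates 2, 3 and 5 and at 48.9, 32.2 and 51.7 CPM in mutant replicates 3, 4 and 5. The 3 highest libraries, control replicate 3 and mutant replicates 3 and 5, were also those with abundant Xist (799 to 1298 CPM, against 0.13 to 2.39 CPM in the others). The Kdm6a value turned positive without control replicate 3 (0.21) or mutant replicate 4 (0.12). With a term for Xist it was -0.27 (edgeR adjusted p = 0.308), an alternative chosen after seeing the data.

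**Figure D4:**
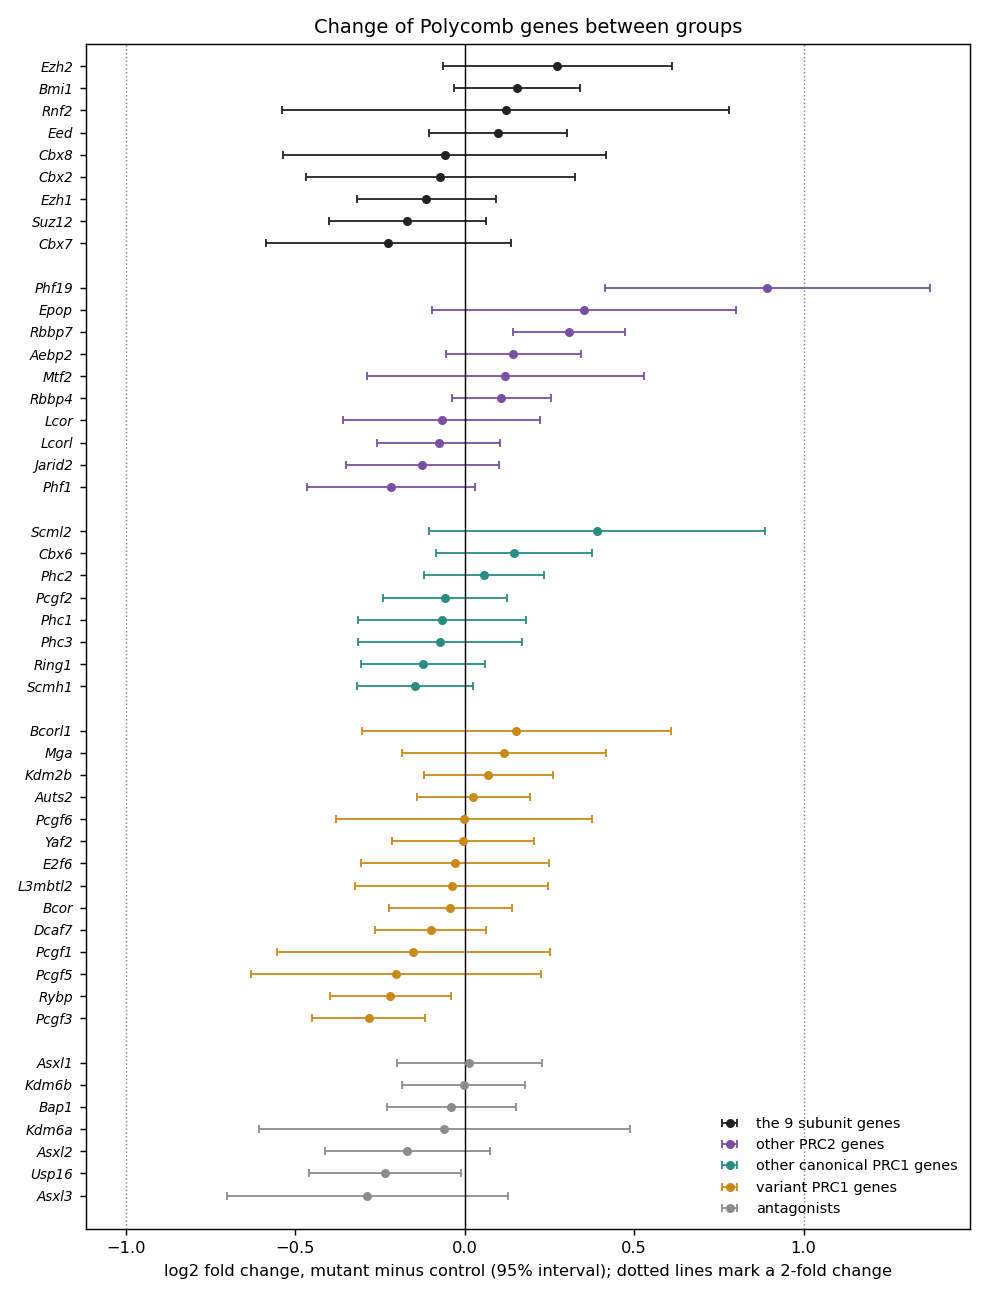
Log2 fold change, mutant minus control, with its 95% confidence interval for the 9 subunit genes and other Polycomb genes, grouped by complex. The intervals of the 9 genes all lie between the dotted lines that mark a 2-fold change, and Phf19 alone among the others reaches past them. With library totals in place of TMM, Ezh1, Suz12, Cbx2, Cbx8 and Kdm6a change sign.

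The levels of genes widely described as Polycomb targets were examined. Only those with enough counts could be tested, and Polycomb repression of these genes was not measured. Of 74 listed, 21 had a row in the table, whose genes all have a summed count of at least 10, and 10 passed the filter on low counts. The other 53 were not analysed here. Of the 39 Hox genes listed, 6 had a row and 3 were tested, Hoxb2, Hoxc13 and Hoxd8, none of which was called. The 11 target genes that did not pass the filter had at most 1.69 CPM in any library. They included Cdkn2a, the senescence locus that Bmi1 and Ezh2 are known to repress, at 2 to 10 counts per library, and its neighbour Cdkn2b stood at 31.6 to 55.6 CPM in controls and 37.6 to 68.3 CPM in mutants (edgeR adjusted p = 0.669).

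The target list too was written with earlier results of these data known, so setting it beside all genes is not an independent comparison. Of the 10 tested target genes, 2 rose and 0 fell, beside 0.659% of all genes that rose. Six2, a homeobox gene of craniofacial mesenchyme, was among those that rose. It stood at 15.2, 14.2 and 14.3 CPM in control replicates 2, 3 and 5 and at 23.2, 25.9 and 22.9 CPM in mutant replicates 3, 4 and 5 (log2 fold change 0.72, SE 0.09, edgeR adjusted p = 0.0180). Every mutant was above every control. The same held for the mean levels of the proliferation list and of the mesenchymal, erythroid, macrophage, endothelial and Schwann cell markers. The part of these shifts in the Six2 values was not tested. Six2 was no longer called when control replicate 2 (adjusted p = 0.0571), control replicate 3 (0.0825), control replicate 5 (0.0648) or mutant replicate 4 (0.0678) was left out. The number of target genes called was 0 when any 1 of these 4 libraries was left out, and 1 without mutant replicate 5. Over all genes, the number called fell from 322 to 11, 33, 38 and 72 without these 4 libraries in turn. It fell to 78 without mutant replicate 5. Pax9, a paired-box gene of dental mesenchyme, did not pass (log2 fold change 0.49, edgeR adjusted p = 0.114).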

How the data were processed

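RNA sequencing of 6 molar libraries was analysed. The authors deposited expected counts, estimated reads per gene that need not be whole, in a table named for Partek's expectation-maximisation step, and a table of normalized signal for 18665 genes, scaled to an equal 75th percentile and used in 1 alternative. The submitters' processing notes list STAR 2.6.1d, Partek and mm10 without roles. Of the rows, 99.9% have the positions of GENCODE M21, whose gene ends and exons were used. Counts of Ezh1, Cbx2, Cbx7 and Cbx8 were whole in every library, and those of the other members were not whole in at least 1 library.

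Counts were rounded, filtered with filterByExpr, scaled by TMM and tested with edgeR 4.0.16 (quasi-likelihood, Benjamini-Hochberg over 17305 genes, threshold 0.05) in R 4.3.3, with DESeq2 1.42.0 and limma 3.58.1 as alternatives. SE is the absolute log2 fold change over the square root of F. Ratios used log2 of counts plus 0.5. Same-group libraries differed beyond counting noise (chi-square per degree of freedom 24.3 to 44.2). The scripts were tested on simulated data. The members and lists were chosen with earlier results of these data known. Named genes are all members, Arid1a, called genes of each list or up to 4 by smallest p, and the 5 closest profiles of Ezh2 and Bmi1; Trmt1l, Ocln, Dusp1 and the other Rnf2 matches were chosen after their values were seen. All 3 alternatives for the Rnf2-low libraries, Xist and the enamel genes were added after seeing the data. Some genes in the counts are not reported here by name.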

Additional observations from a re-analysis of the deposited data

How the results depend on the processing

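None of the 9 genes was called under any of the alternatives run, while the number of all genes called ranged from 1 to 851. Scaling by library totals turned the log2 fold changes of Ezh1 (0.085), Suz12 (0.036), Cbx2 (0.12), Cbx8 (0.14) and Kdm6a (0.15) positive. It called 1 other Polycomb gene, Rbbp7, beside 520 of all 17305 genes. DESeq2 called 2, beside 851 of 22287 genes, and a threshold of 0.1 called 2, beside 672 of 17305 genes. With totals that leave out Amelx, Ambn and Enam, the median of all genes was 0.03. Target genes called numbered 1 with limma-voom, with limma on the normalized table and with a term for Xist. All genes called in these fits numbered 270, 113 and 58. Target genes called numbered 0 with the replicate block and without the 2 libraries lowest in Rnf2, beside 90 and 1 of all genes. Arid1a was no longer called in either of these fits (log2 fold change -0.70 and -0.68). Numbers 3 and 5 are shared by control and mutant titles but mark no stated pairing (correlation of deviations 0.32 and -0.17). With this replicate block, values were -0.35 for Rnf2, 0.064 for Cbx2, 0.24 for Cbx8 and -0.22 for the log2 ratio of Rnf2 to Ring1, and 90 genes were called in place of 322. Leaving out 1 library at a time gave -0.11 to 0.35 for Rnf2, -0.24 to 0.033 for Cbx2, -0.21 to 0.15 for Cbx8 and -0.21 to 0.21 for Kdm6a. It gave -0.036 to 0.51 for the ratio of Rnf2 to Ring1, -0.018 to 0.33 for that of Cbx2 to Cbx7, and -0.71 to -0.64 for Arid1a. Target genes called then numbered 0 to 2, beside 11 to 243 of all genes. The cause of these changes was not tested, and fits without a library have fewer samples. The 3 libraries per group limit the precision: the intervals of Ezh2, Rnf2 and Cbx7 reach beyond a 1.5-fold change.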
